A study of Danio rerio with 4 samples.

Results

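The keratins krt97 (ENSDARG00000000212), krt99 (ENSDARG00000019365) and krt1-19d (ENSDARG00000023082) are 3 of the 32313 genes measured in wild-type zebrafish embryos and in eif3ha morphants, embryos in which the translation initiation factor subunit eIF3h was targeted. They were picked by identifier after their values in these same 4 libraries were known, so their levels and ratios are given as a description without a test. In morphant total mRNA, krt97 was 2.59-fold higher than in wild type, while krt99 was 2.25-fold and krt1-19d 3.52-fold lower. On polysomes the same transcripts differed by less than 2-fold between the conditions. The labels name the embryos only as whole, and RNA of whole embryos cannot show which cells held these transcripts, so the word epidermal rests on what the keratin family is known for.

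Keratins are the intermediate filament proteins of epithelia. A filament is built from pairs of a type I and a type II keratin, and it gives the cell resistance to stretch and shear. In the zebrafish embryo the skin has an outer layer, the periderm, over a layer of basal cells. Of the proteins mentioned here, krt4, krt5 and krt8 are type II keratins, and krt18a.1, cyt1 and krt1-19d are type I. A transcript that carries several ribosomes sediments with polysomes, and the share of an mRNA found there is a common measure of how actively it is translated.

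Embryos were collected at about 24 hours after fertilization, as wild type or as eif3ha morphants, which were injected with a morpholino (an antisense oligonucleotide) against eif3ha. Polysomal mRNA came from 300 pooled embryos and total mRNA from 50, and polyA RNA of each was read as single reads of 36 bases. Each of the 4 groups, wild-type polysomal, morphant polysomal, wild-type total and morphant total, holds 1 library. No group with a control morpholino is named in the labels, so the injection and any loss of eIF3h cannot be told apart.

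Depth, as the steps in the values show it, was 15769474 mapped reads for wild type and 22001389 for morphants in the polysomal libraries, and 24939996 for wild type and 21021433 for morphants in the total libraries. Levels are in RPKM, reads per kilobase of gene model scaled by this depth. A level is thus relative to the other reads of its library and is not an amount per embryo. Intervals are 95% intervals that cover counting error only, not the spread between libraries of 1 group, which was not measured. Of 1004 genes with 2 reads over both polysomal libraries, 20.6% had 1 in each, where independent reads at equal levels would give 48.6%. For the total libraries it was 45.4% of 841 genes, against 49.6%. Intervals that use polysomal reads may therefore be too narrow. Read numbers and gene model lengths are at or close to the smallest that give whole steps, reads plus 1, in every library. Where the true steps and length of a gene share a factor, its reads are too low and the interval is too wide. The row named EIF3H (ENSDARG00000036116) was listed at 6.33 (wild type) and 7.60 RPKM (morphant) on polysomes and at 6.24 and 5.92 RPKM in total mRNA. A morpholino that blocks translation need not lower an mRNA, so this level does not check the knockdown. In whole embryos, fewer cells of a type and less RNA per cell cannot be told apart, which holds for every keratin value given here.

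On polysomes the level of krt97 was 94.8 RPKM for wild type and 84.8 for morphants, and in total mRNA it was 38.6 for wild type and 101 for morphants. In the same order these values rest on 2247, 2802, 1446 and 3179 reads over a gene model of 1503 bases. Wild-type total mRNA stood below the other libraries, which lay within 1.19-fold of each other. The counting intervals of morphant total (97.1 to 104 RPKM) and wild-type polysomal mRNA (90.9 to 98.8) overlapped, and no other pair did.

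The level of krt99 on polysomes was 4.60 RPKM for wild type and 7.40 for morphants, against 40.9 and 17.9 RPKM in total mRNA. These rest, in that order, on 339, 762, 4784 and 1761 reads over a gene model of 4688 bases, the longest of the 3 models. Both polysomal libraries stood below both total libraries, and no counting interval overlapped another.

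The polysomal level of krt1-19d was 7.66 RPKM for wild type and 4.33 for morphants, and its total level was 19.6 and 5.21 RPKM, from 316, 249, 1280 and 286 reads over 2623 bases. Here wild-type total mRNA stood above the other 3 libraries. The intervals of morphant polysomal (3.80 to 4.89 RPKM) and morphant total mRNA (4.60 to 5.82) overlapped, and no other pair did.

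**Figure D1:**
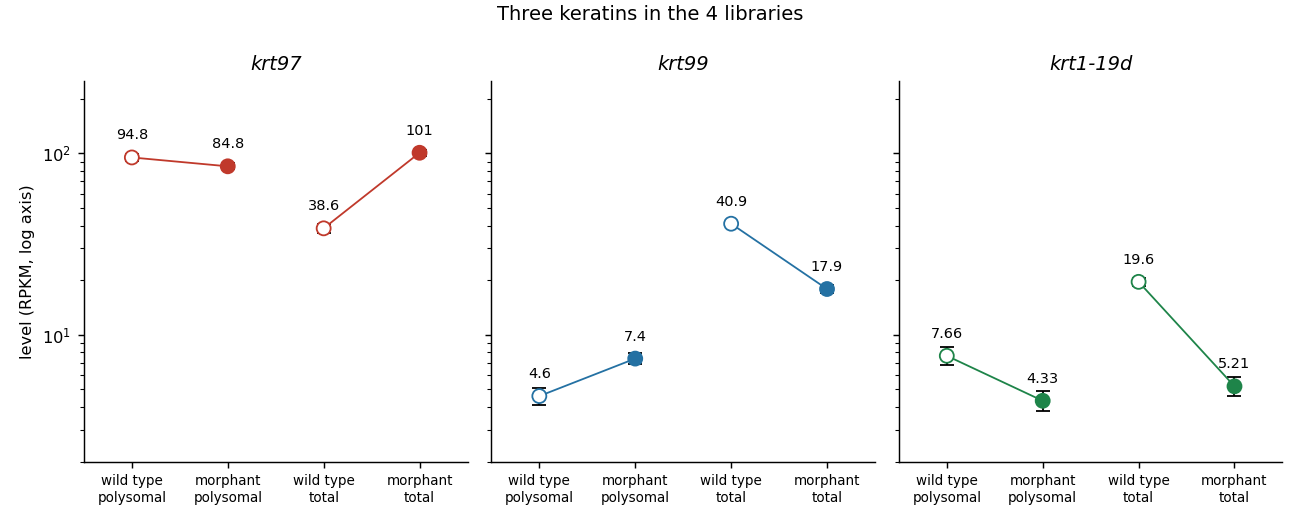
Level of each keratin (RPKM, log axis) in the 4 libraries, with open circles for wild type and filled circles for eif3ha morphants. Bars are 95% counting intervals of the reads and lines join the 2 conditions of 1 fraction. Wild-type total mRNA is the lowest library for krt97, at 38.6 RPKM, and the highest for krt99, at 40.9, and krt1-19d, at 19.6.

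Together the 3 transcripts summed to 107 RPKM (wild type) and 96.5 RPKM (morphant) on polysomes, and to 99.1 and 124 RPKM in total mRNA. In wild-type total mRNA this sum was shared between krt97 (38.9%) and krt99 (41.3%), with krt1-19d at 19.8%. In the morphant, krt97 made up 81.3% of the sum in total mRNA. On polysomes it made up 88.6% in wild type and 87.8% in morphants. Levels of different genes also depend on the length of each gene model in the authors' annotation.

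In total mRNA, measured as a share of the reads and not as an amount per embryo, all 3 keratins lay beyond 2-fold, in 2 directions. The log2 ratio of morphant to wild type, taken on RPKM + 0.5, was 1.37 for krt97, with an interval of the read ratio from 1.29 to 1.47. For krt99 it was -1.17 (-1.27 to -1.12), and for krt1-19d it was -1.82 (-2.11 to -1.73). Among 12154 genes at 3 RPKM or more in 1 of the compared libraries, 1.43% were higher and 0.675% lower by 2-fold or more, and since the genes were picked on this contrast nothing is read from their count. From the low end of these genes, krt1-19d ranked 10 and krt99 ranked 44. From the high end krt97 ranked 92. The median over all these genes was -0.02.

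In polysomal mRNA, none of the 3 reached 2-fold, where 1.76% of 8261 genes (145) were higher and 4.12% (340) lower by that much, a balance that turned to 309 higher and 221 lower when libraries were scaled without the 50 most abundant genes. The log2 ratio was -0.16 for krt97 (interval of the read ratio -0.24 to -0.08), and it turned to 0.07 under that scaling. For krt99 the ratio was 0.63 (0.50 to 0.88), on the higher side in morphants and so opposite in sign to its ratio in total mRNA. The ratio of krt1-19d was -0.76 (-1.07 to -0.58), the same sign as in total mRNA but smaller. That scaling moved the median of all genes in polysomal mRNA from -0.01 to 0.21, and krt99 and krt1-19d kept their signs under it.

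Polysome association is what remains of a polysomal log2 ratio once that in total mRNA is subtracted, so it shares its libraries with both of these comparisons. It was -1.53 for krt97 (read interval -1.67 to -1.42), 1.80 for krt99 (1.68 to 2.08) and 1.06 for krt1-19d (0.79 to 1.39). Thus the polysomal level of krt97 relative to its total level was lower in morphants than in wild type, and that of krt99 and krt1-19d higher. For this value a gene needed 3 RPKM in each total library and in 1 or more polysomal libraries, and of the 7546 such genes 1.62% (122) were higher and 3.07% (232) lower by 2-fold or more, with 234 higher and 156 lower when scaled without the 50 most abundant genes. Because the choice of genes used these values, they are again a description. From the high end krt99 ranked 9 and krt1-19d ranked 98, and from the low end krt97 ranked 72. For krt97 and krt99 the total and the polysomal difference added up, the total one being the larger, while for krt1-19d the polysomal difference took away from the total one. For krt97 this depended on scaling, since its polysomal log2 ratio turned to 0.07 without the 50 most abundant genes.

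**Figure D2:**
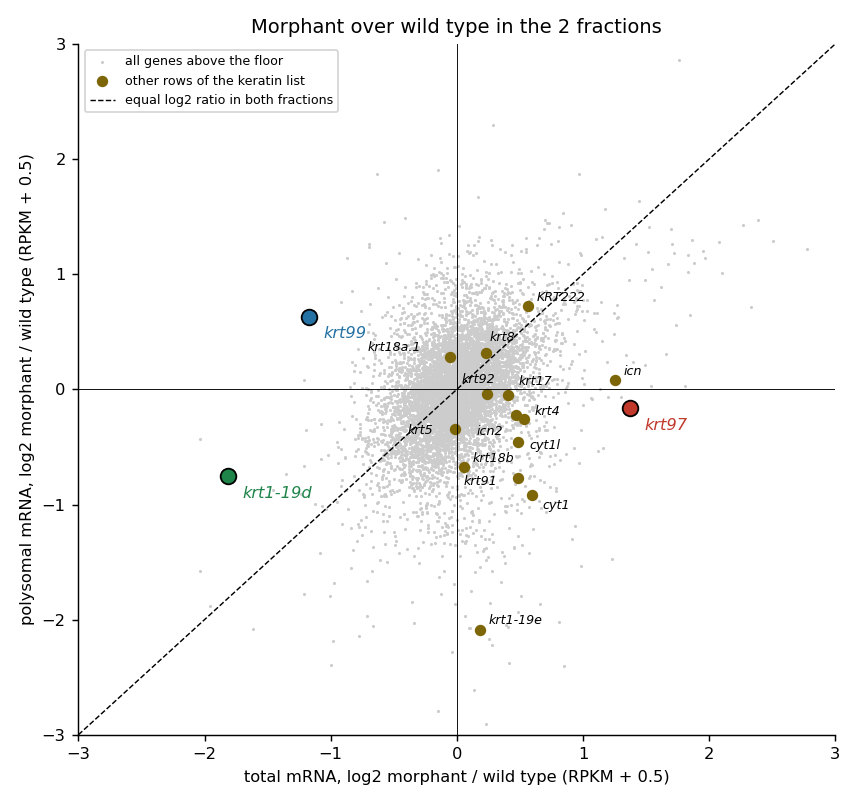
Log2 ratio of morphant to wild type (RPKM + 0.5) in total mRNA on the x axis and in polysomal mRNA on the y axis, for the genes with a polysome association value. Grey points are all such genes, except 5 outside the plotted range, brown points are other rows of the keratin list and large points are the 3 keratins. The vertical distance from the dashed line is polysome association, -1.53 for krt97, 1.80 for krt99 and 1.06 for krt1-19d.

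Polysomal over total mRNA within each condition shows the same values from the other side. Each library is scaled to its own depth, so this ratio is not the fraction of a transcript found on polysomes. In wild type, krt97 stood 2.44-fold above its total level on polysomes (log2 ratio 1.29, read interval 1.2 to 1.39). By contrast krt99 was 8.12-fold lower (-3.02, read interval -3.32 to -2.998) and krt1-19d 2.46-fold lower (-1.30, read interval -1.54 to -1.18). Among 12072 genes, 10.5% were higher and 42.7% lower on polysomes by 2-fold or more, with a median of -0.71, so lower values were common there. The fold of krt97 depended on scaling, with a log2 ratio of 0.84 without the 50 most abundant genes. In morphants the log2 ratios were -0.25 for krt97 (-0.32 to -0.17), -1.22 for krt99 (-1.40 to -1.15) and -0.24 for krt1-19d (-0.52 to -0.02), against a median of -0.70 over 11951 genes. The 3 keratins thus spanned from -3.02 to 1.29 in wild type and from -1.22 to -0.24 in morphants. They were picked with the values of these libraries known, and each group holds 1 library, so nothing is read from the narrower span. Of the genes compared in morphants, 6.81% were higher and 41.1% lower on polysomes by 2-fold or more.

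**Figure D3:**
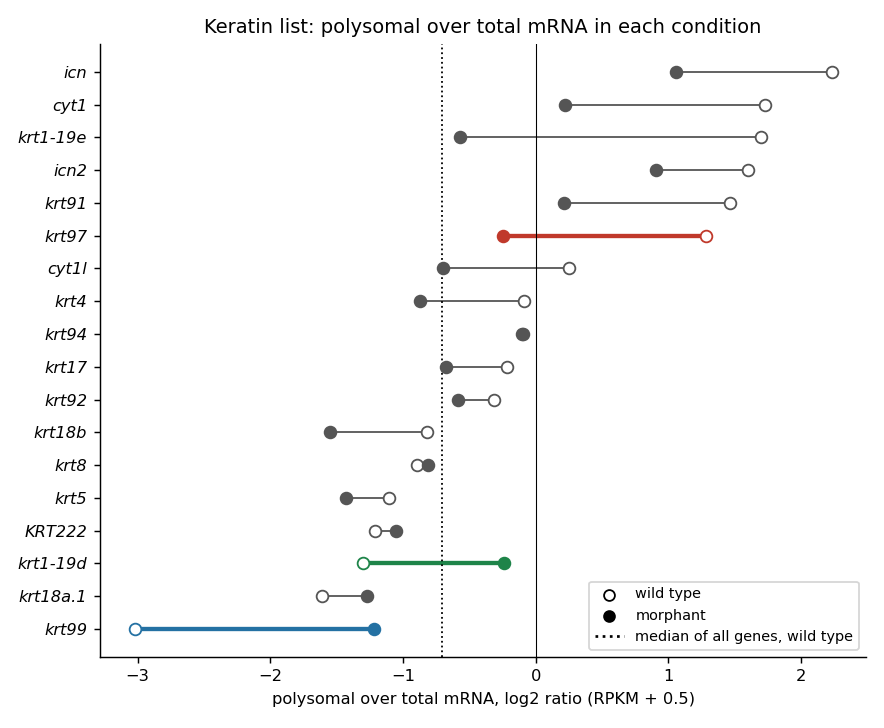
Log2 ratio of polysomal to total mRNA (RPKM + 0.5) for the 18 rows of the keratin list above the floor in wild type, in wild type (open) and morphants (filled). The dotted line is the median of all genes in wild type, -0.71. The ratio of krt97 goes from 1.29 to -0.25, that of krt99 from -3.02 to -1.22 and that of krt1-19d from -1.30 to -0.24. Both values of krt94 in morphants are under the floor.

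The keratin list held 24 rows, of which 22 are keratins and 2, icn and icn2, are ictacalcins, small calcium-binding proteins of the skin. Counts and medians of the list include these 2 ictacalcins. Of the 24 rows, 18 reached 3 RPKM in 1 or more libraries. The rest (krt15, krt93, krt95, krt98, krt1-c5 and krt18a.2) stayed under 3 RPKM in every library, and krt95 had no read in any. By level in wild-type total mRNA krt99 was number 12 of the 24 rows, krt97 number 13 and krt1-19d number 15. The most abundant row, krt4, reached 3045 RPKM for wild type and 4400 for morphants in total mRNA.

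In total mRNA, 13 of 18 rows lay above 0, with a median log2 ratio of 0.32 against -0.02 for all genes. Besides krt97, icn was the other row at least 2-fold higher, from 169 RPKM for wild type to 402 for morphants (log2 ratio 1.25). Only krt99 and krt1-19d were at least 2-fold lower. Thus 2 of 18 rows were higher and 2 lower by that much, where 1.43% and 0.675% of all genes were. Of these rows krt97, krt99 and krt1-19d were picked with these values known. The other rows below 0 were krt94 at -0.32, krt18a.1 at -0.05 and krt5 at -0.01, the last turning to 0.01 when scaled without the 50 most abundant genes. Several abundant keratins were higher by less than 2-fold, with cyt1 at 0.59, krt4 at 0.53, krt91 at 0.48, krt92 at 0.24 and krt8 at 0.23. This did not hold for krt5, number 2 by level in wild-type total mRNA, or for krt18a.1. Without krt97, krt99 and krt1-19d, 12 of 15 rows lay above 0 with a median of 0.41, and 1 was at least 2-fold higher and 0 lower.

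In polysomal mRNA, 12 of 17 rows lay below 0, with a median of -0.22 against -0.01 for all genes, but with libraries scaled without the 50 most abundant genes 8 of 17 did, with a median of 0.0080 against 0.21. Of the 17 rows 0 were at least 2-fold higher and 1 lower, where 1.76% and 4.12% of all genes were, so nothing is read from this count. The lower row was krt1-19e, listed as a basal epidermis marker under its synonym krtt1c19e. It went from 55.8 RPKM for wild type to 12.7 for morphants on polysomes, a log2 ratio of -2.09 (read interval -2.29 to -1.98). In total mRNA it stood at 16.9 and 19.2 RPKM. The other 6 basal epidermis markers above the floor on polysomes all lay above 0 there, with a median of 0.34. For association the median of the 17 rows was -0.69, against -0.0047 for all genes, with 5 rows at least 2-fold lower and 2 higher, where 3.07% and 1.62% of all genes were. The lower rows were krt1-19e (-2.27), krt97 (-1.53), cyt1 (-1.51), krt91 (-1.25) and icn (-1.17), the last of which is no keratin. The medians of -0.69 in association and -0.22 in polysomal mRNA are the values of icn2, so they are not medians of keratins alone. The higher ones were krt99 and krt1-19d, which like krt97 were picked with these values known. Without these 3 keratins, 4 of 14 rows were at least 2-fold lower and 0 higher, with a median of -0.71. Of these 14 rows 11 lay below 0, with krt18a.1 at 0.34, KRT222 at 0.16 and krt8 at 0.08 above it. Scaled without the 50 most abundant genes, 12 of 17 rows lay below 0 in association, with a median of -0.49 against 0.19 for all genes, and 4 were at least 2-fold lower, since icn stood at -0.96.

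Gene order in the RefSeq annotation of the assembly GRCz12tu puts the 3 genes in separate groups of keratin genes. Next to krt1-19d lies krt1-19e, followed by krt92, cyt1l, cyt1, krt17 and krt91. Of these 7 neighbouring keratins, krt1-19d was the one row below 0 in total mRNA, while the others ranged from 0.18 (krt1-19e) to 0.59 (cyt1). On polysomes all 7 lay below 0 in the morphant, from -2.09 for krt1-19e to -0.04 for krt92, of which krt92 and krt17 turned to 0.20 and 0.18 when scaled without the 50 most abundant genes. The sources do not say how reads matching both krt1-19d and krt1-19e were counted, so a shift of reads between such copies was not tested.

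Next to krt99 lie krt15, krt98, krt94 and krt93, each at 3.11 RPKM or less in every library. This leaves krt99 as the one abundant transcript among its keratin neighbours, at 40.9 RPKM in wild-type total mRNA. Beside krt97 lie krt96, which matched no measured gene by symbol, and KRT222. In total mRNA KRT222 was at 5.88 RPKM for wild type and 8.93 for morphants, and on polysomes at 2.26 and 4.05 RPKM. Its log2 ratio was 0.57 in total mRNA, the sign of krt97, but 0.72 in polysomal mRNA, where krt97 stood at -0.16.

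Markers of the skin were detected, though not each of them in every library. Of 14 periderm markers, 13 reached 3 RPKM in 1 or more libraries. Their summed polysomal level was 5421 RPKM for wild type and 4704 for morphants and their summed total level 5021 and 6973 RPKM, most of it krt4. Of the 14, 8 are rows of the keratin list already counted (krt4, krt5, krt17, krt92, cyt1, cyt1l, icn and icn2), so the periderm values largely repeat it. In total mRNA 11 of the 13 lay above 0 with a median of 0.36, and of the 5 that are no rows of the keratin list 4 did, with a median of 0.28. On polysomes 8 of 10 lay below 0 and in association 9 of 10, and without rows of the keratin list 1 of 2 in each. The polysomal count depended on scaling. Without the 50 most abundant genes, icn2, krt17 and krt92 turned to 0.0080, 0.18 and 0.20 there, and the median of all genes moved from -0.01 to 0.21. Examples outside the keratin list in total mRNA were the secreted protein gene agr1 at 0.32, the claudin cldne at 0.28 and the transcription factor genes GRHL1 at 0.36 and grhl3 at -0.15.

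Of 11 basal epidermis markers, 1 of them (krt1-19e) also a row of the keratin list, 8 reached 3 RPKM, and all 8 lay above 0 in total mRNA, from TP63 at 0.05 to epcam at 0.62, with a median of 0.26. TP63, the transcription factor that defines basal keratinocytes, had 7.09 RPKM (wild type) and 7.36 RPKM (morphant) in total mRNA. On polysomes 6 of 7 basal markers lay above 0, and krt1-19e was the one below. The basal markers lamb3, col17a1a and col17a1b were under 1 RPKM in every library. Summed over the list, basal markers had 288 RPKM (wild type) and 382 RPKM (morphant) in total mRNA, and 424 and 455 RPKM on polysomes. What part these marker levels have in the keratin values was not tested.

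Other lists differed in how they stood. The list of simple epithelium and other intermediate filaments held krt8, krt18a.1 and krt18b, counted above, and 4 further genes above the floor. These 4 had a median of -0.12 in total and -0.46 in polysomal mRNA. On polysomes VIM, the vimentin of mesenchymal and glial cells, stood at -1.38 and GFAP of glia at -0.92. The nuclear lamins LMNA and LMNB1 stood there at 0.11 and -0.01. The symbol VIM names 2 rows, and the other one stayed under 3 RPKM in every library. With the keratins included, the medians over 7 genes were -0.05 in total and -0.0060 in polysomal mRNA. Desmosomes anchor keratin filaments to the cell surface. Of 15 symbols in the list of desmosome and cornified envelope genes, 4 matched a measured gene, and dspa, dspb, jupa and jupb did not. The 3 above the floor stood between 0.09 (dsc2l) and 0.26 (evpla, also a periderm marker) in total mRNA, too few genes to stand for desmosomes. The transcript of evpla, an envoplakin, was nearly absent from polysomal mRNA, at 0.15 (wild type) and 0.24 RPKM (morphant) against 15.4 and 18.5 RPKM in total mRNA. The 3 ionocyte genes above the floor lay above 0 in total mRNA, with foxi3a at 0.70, as did 5 of 6 hatching gland genes, with he1.2 at 1.15. Unlike most rows of the keratin list, all 6 hatching gland genes lay above 0 on polysomes (median 0.91) and 5 of 6 in association. Of the 3 ionocyte genes 2 lay above 0 on polysomes and 1 in association. In the fin fold list 2 genes were above the floor in total mRNA, the actinodin and1 at 1.38 and fras1 at -0.04. On polysomes 3 genes of this list were above the floor, from and1 at -1.22 to and3 at -3.54, with a median of -1.95. No gene of this list met the floor for polysome association.

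Likeness of pattern was measured as the Euclidean distance between log2 levels over the 4 libraries, each gene centred on its own mean, among 10002 other genes with a symbol and 3 RPKM in 1 or more libraries. With 4 libraries this is a coarse measure. Nearest to krt97 were BBLN (distance 0.20), the glutathione-degrading enzyme CHAC1 (0.25), mir16c (0.27), the sulfotransferase sult6b1 (0.29) and the annexin ANXA2 (0.33). CHAC1 had levels close to krt97, with 89.2 and 89.7 RPKM (wild type and morphant) on polysomes and 46.4 and 102.5 RPKM in total mRNA. Only 9 to 20 reads stand behind each value of mir16c.

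Nearest to krt99 were snord79.1 (0.13), the claudin cldn26 (0.28), the ventral eye homeobox gene VAX2 (0.29), si:dkey-17m8.2 (0.33) and the fibronectin gene FN1 (0.36). The first of these had no read in wild-type polysomal mRNA and at most 20 in any library, and cldn26 and VAX2 also had no read there. At such low levels the likeness depends on the 0.5 RPKM added. For polysomal over total mRNA in wild type, si:dkey-17m8.2 stood at -2.57 with it and at -4.17 from reads alone. For krt99 these values were -3.02 and -3.16. FN1 rests on 278 or more reads in each library, with 0.82 and 1.08 RPKM (wild type and morphant) on polysomes and 8.57 and 4.52 RPKM in total mRNA. Nearest to krt1-19d were the secreted matrix protein SPON1 (0.25), si:zfos-1505d6.3 (0.27), the chaperone HSP90AA1 (0.28), si:ch211-201h21.5 (0.43) and si:dkey-28b4.8 (0.47). Of these, HSP90AA1 was close in level too, with 9.78 and 5.10 RPKM on polysomes and 22.1 and 7.73 RPKM in total mRNA. Few reads stand behind si:zfos-1505d6.3, with 13 to 100 in a library, and si:ch211-201h21.5, with 12 to 128. No keratin was among the 5 nearest genes of any of the 3, and the distances between them were 3.24 for krt97 and krt99, 2.63 for krt97 and krt1-19d and 1.73 for krt99 and krt1-19d.

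**Figure D4:**
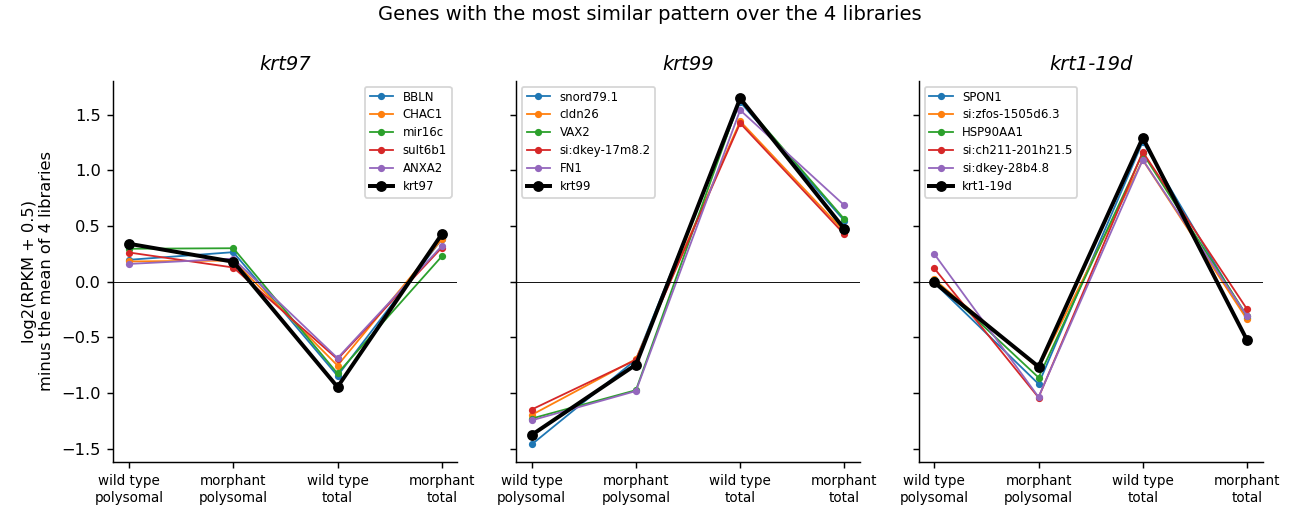
Log2(RPKM + 0.5) minus the mean of the 4 libraries for each keratin (black) and the 5 genes nearest to it in pattern (coloured). Wild-type total mRNA is the low point of the krt97 panel and the high point of the krt99 and krt1-19d panels.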

How the data were processed

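The deposited values are RPKM, made by the authors and named so per the file headers, with 1 value per Ensembl gene and library. The genome build is Zv9, per the submitters' processing notes. Not given in the sources used here are the annotation release, the aligner and how reads matching several genes were counted. Symbols were joined by identifier for 20499 of 32313 genes, and synonyms and gene order came from RefSeq for the assembly GRCz12tu, names only.

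No gene is at 0 and low values move in equal steps, which was read as whole reads plus 1. Depth and gene model lengths followed from these steps. The smallest length that gave whole steps in all 4 libraries, within 0.003 reads or a relative 3e-06, was found first. The closest match among this and slightly greater lengths was then taken. Genes for which an accidental match was too likely were left without reads, unless all 4 steps were equal. Where the 4 true numbers of steps and the gene length share a factor, this rule gives too few reads and too short a model, while ratios stay nearly as they are. Reads were recovered for 96.8% of genes and for 91.9% of those at 3 RPKM or more in 1 library. Ratios are log2 of (RPKM + 0.5), a scale that understates differences of low genes, and the intervals are exact (Clopper-Pearson) binomial ones on reads, or a normal approximation on the log scale for polysome association. The steps were also run on simulated reads, drawn as Poisson counts plus 1 with the depths and gene model lengths found here. Such reads hold the assumption of whole reads plus 1, so this run cannot test it. With 1 library in each group no test between groups was made.

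The members, the gene lists and the comparisons were chosen with earlier results of these data known. The lists are the keratins by symbol and markers of periderm, basal epidermis, simple epithelium, ionocytes, hatching gland, fin fold and desmosomes. Named by rule are the 3 keratins, keratin rows above the floor and, for each of the 3 keratins, the 5 genes of most similar pattern. From each other list the rule was up to 4 genes above the floor farthest from 0 in any comparison. They need not be the farthest in the comparison quoted, such as TP63 at 0.05 in total mRNA. Some genes under the floor are named as well. Alternatives were 2 other scalings, a pseudocount of 1, no floor and a floor of 12 RPKM. Reads without a pseudocount, and the same alternatives for the other keratins, were chosen after seeing the data. The software was SciPy 1.17.1, pandas 2.3.3 and NumPy 2.4.6 under Python 3.11.15, with figures from Matplotlib 3.10.9.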

Additional observations from a re-analysis of the deposited data

Results flagged for a closer look

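Of the 17 rows of the keratin list with a polysome association value, 12 had ratios of morphant to wild type of opposite sign in the 2 fractions, as had 36.3% of all 7546 genes with such a value. Scaled without the 50 most abundant genes, 9 of the 17 rows and 38.1% of all genes did. With 1 library in each group the difference between fractions was not tested, and the polysomal ratios of krt97, icn2, krt17 and krt92 turned to above 0 when libraries were scaled without the 50 most abundant genes. The polysomal minus the total log2 ratio was 1.80 for krt99 and 0.34 for krt18a.1, which were higher in polysomal and lower in total mRNA. The opposite held for krt97 at -1.53, krt1-19e at -2.27, cyt1 at -1.51, krt91 at -1.25, cyt1l at -0.95, krt4 at -0.79, krt18b at -0.73, icn2 at -0.69, krt17 at -0.46 and krt92 at -0.27. The ratio of krt1-19d had the same sign in both fractions.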

How the results depend on the processing

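Under the alternatives run on krt97, krt99 and krt1-19d (2 scalings, a pseudocount of 1 and reads without a pseudocount), 59 of 60 values kept their sign and 59 of 60 their side of 2-fold. Both exceptions are krt97 with libraries scaled to the sum without the 50 most abundant genes, at 0.070 in polysomal mRNA and 0.84 for polysomal over total mRNA in wild type. Under that scaling krt97 stood at -1.33 in association and -0.49 for polysomal over total mRNA in morphants. It placed krt99 at 0.84 in polysomal mRNA, and at -3.44 in wild type and -1.45 in morphants for polysomal over total mRNA, and krt1-19d at -1.72 for the wild-type ratio. Median-of-ratios scaling gave krt97 1.43 in wild type and -0.082 in morphants and krt99 -1.06 in morphants for polysomal over total mRNA. It moved the medians of all genes in wild type from -0.71 to -0.57 and in morphants from -0.70 to -0.54, and scaling without the 50 most abundant genes moved them to -1.12 and -0.93. These shifts follow from the scaling factors, which are common to all genes of a library.

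Counts of genes past 2-fold follow the floor, since the number of genes compared changes with it. In polysomal mRNA 145 genes were higher and 340 lower, with 280 and 549 without a floor, 58 and 161 with a floor of 12 RPKM, and 309 and 221 when scaled without the 50 most abundant genes. In total mRNA 174 were higher and 82 lower, with 319 and 149 without a floor and 83 and 29 with 12 RPKM. In association 122 were higher and 232 lower, with 494 and 932 without a floor, 23 and 94 with 12 RPKM, and 234 and 156 without the 50 most abundant genes, where higher calls outnumber lower ones. For polysomal over total mRNA in wild type 5156 genes were lower, with 8097 without a floor and 1767 with 12 RPKM, and 1267 higher, with 734 without the 50 most abundant genes. In morphants 4913 were lower, with 7949 and 1591, and 814 higher, with 519. No paired analysis was possible because each group holds 1 library and the labels carry no replicate numbers. Low counts limit the nearest genes of krt99, and leaving out a replicate could not be run.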
